A study of Homo sapiens with 6 samples.

Results

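The respiratory chain of the inner mitochondrial membrane is built from proteins of both genomes, and the genes described here are those of the nuclear genome. They were chosen by name, as the gene symbols of the count table that begin with NDUFA, NDUFB, NDUFC, NDUFS or NDUFV and a number, SDHA to SDHD, UQCR, COX4 to COX8 or ATP5, together with CYC1. Of 56303 rows, 180 matched, 1 name with a hyphen and 93 pseudogene names were dropped, and 86 genes remained. Complex I accounts for 36 of them, complex II for 4, complex III for 10, complex IV for 18 and ATP synthase (complex V) for 16. The other 2, ATP5S and ATP5SL, carry the name but do not encode subunits of the enzyme. NDUFA4 is counted with complex IV, to which its protein is now assigned.

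The libraries are RNA sequencing of A549, an established line of human lung adenocarcinoma with epithelial features. The labels give 2 genotypes, HNRNPD NC and HNRNPD si, read here as negative-control siRNA and siRNA against HNRNPD, with 3 libraries each. HNRNPD encodes the RNA-binding protein AUF1, and the comparison asks which transcripts differ when it is lowered in this 1 cell line. The labels do not say whether replicates came from separate cultures or received the same siRNA sequence, so the p-values reflect how far these 3 libraries of a group lie apart, a spread that may be technical.

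Complex I passes electrons from NADH to ubiquinone, and complex II, which is also the succinate dehydrogenase of the tricarboxylic acid cycle, passes them from succinate. Complex III moves them from ubiquinol to cytochrome c, complex IV from cytochrome c to oxygen, and ATP synthase uses the proton gradient that complexes I, III and IV build. Mitochondrial DNA encodes a few core subunits of every complex but complex II, so the enzymes need balanced supplies from both genomes. Many of the nuclear genes share promoter elements for NRF1, the ETS factor GABP and YY1, and AUF1 is best known as a protein that binds AU-rich elements in mRNA.

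HNRNPD itself stood at 965, 943 and 942 counts per 1000000 (CPM) in control replicates 1 to 3 and at 177, 163 and 167 CPM in HNRNPD siRNA replicates 1 to 3. The groups did not overlap, and the fall was 5.62-fold (edgeR quasi-likelihood test, adjusted p = 1.38e-15). CPM here are counts divided by library totals scaled by the TMM method. Libraries held 37151094 to 43005090 counts, the 86 genes took 0.357% to 0.459% of them, and a count of 0 allows up to 3 counts, or 0.0698 to 0.0808 CPM. Of 5 epithelial markers KRT8 was highest, at 3327 ± 135 CPM in controls (SD, n = 3), all 5 were detected in every library, and KRT8, KRT18 and KRT19 were lower and EPCAM higher after HNRNPD siRNA. The summed level of 10 markers of leukocytes, fibroblasts and endothelium was 8.12 to 8.19 CPM in controls and 7.71 to 8.92 CPM after HNRNPD siRNA, mostly COL1A1 and CD14. CD14 fell from 2.07 to 0.514 CPM and COL1A1 rose from 5.14 to 6.67 CPM, while PTPRC, CD3E and VWF stayed under 0.15 CPM in all libraries. The part of other cell types in the results below was not tested.

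Nuclear transcripts of the respiratory chain were lower more often than higher after HNRNPD siRNA, by small amounts. Of the 81 members with enough counts to be tested, 41 were lower, 11 higher and 29 not called at an edgeR adjusted p under 0.05. Over all 20465 genes tested, 56.1% were called, with 27.8% lower and 28.4% higher, against 50.6% lower and 13.6% higher among the tested members. Without HNRNPD siRNA replicate 2 the members called higher were 7. The median log2 fold change of the members was -0.23, which is a fall of 14.7%, with quartiles at -0.40 and 0.07, while that of all tested genes was 0.01. Respiratory chain genes are abundant, and among the 6363 tested genes averaging 20 CPM or more, 39.5% were lower and 31.5% higher (median -0.05). None of the 41 genes called lower fell by 2-fold or more, a size that 6.09% of all tested genes reached. The groups did not overlap, with every HNRNPD siRNA library below every control, for 42 members (30.9% of all tested genes) and in the other direction for 11 (31.7%). In bulk libraries, fewer cells of a type and less RNA per cell cannot be told apart.

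**Figure D1:**
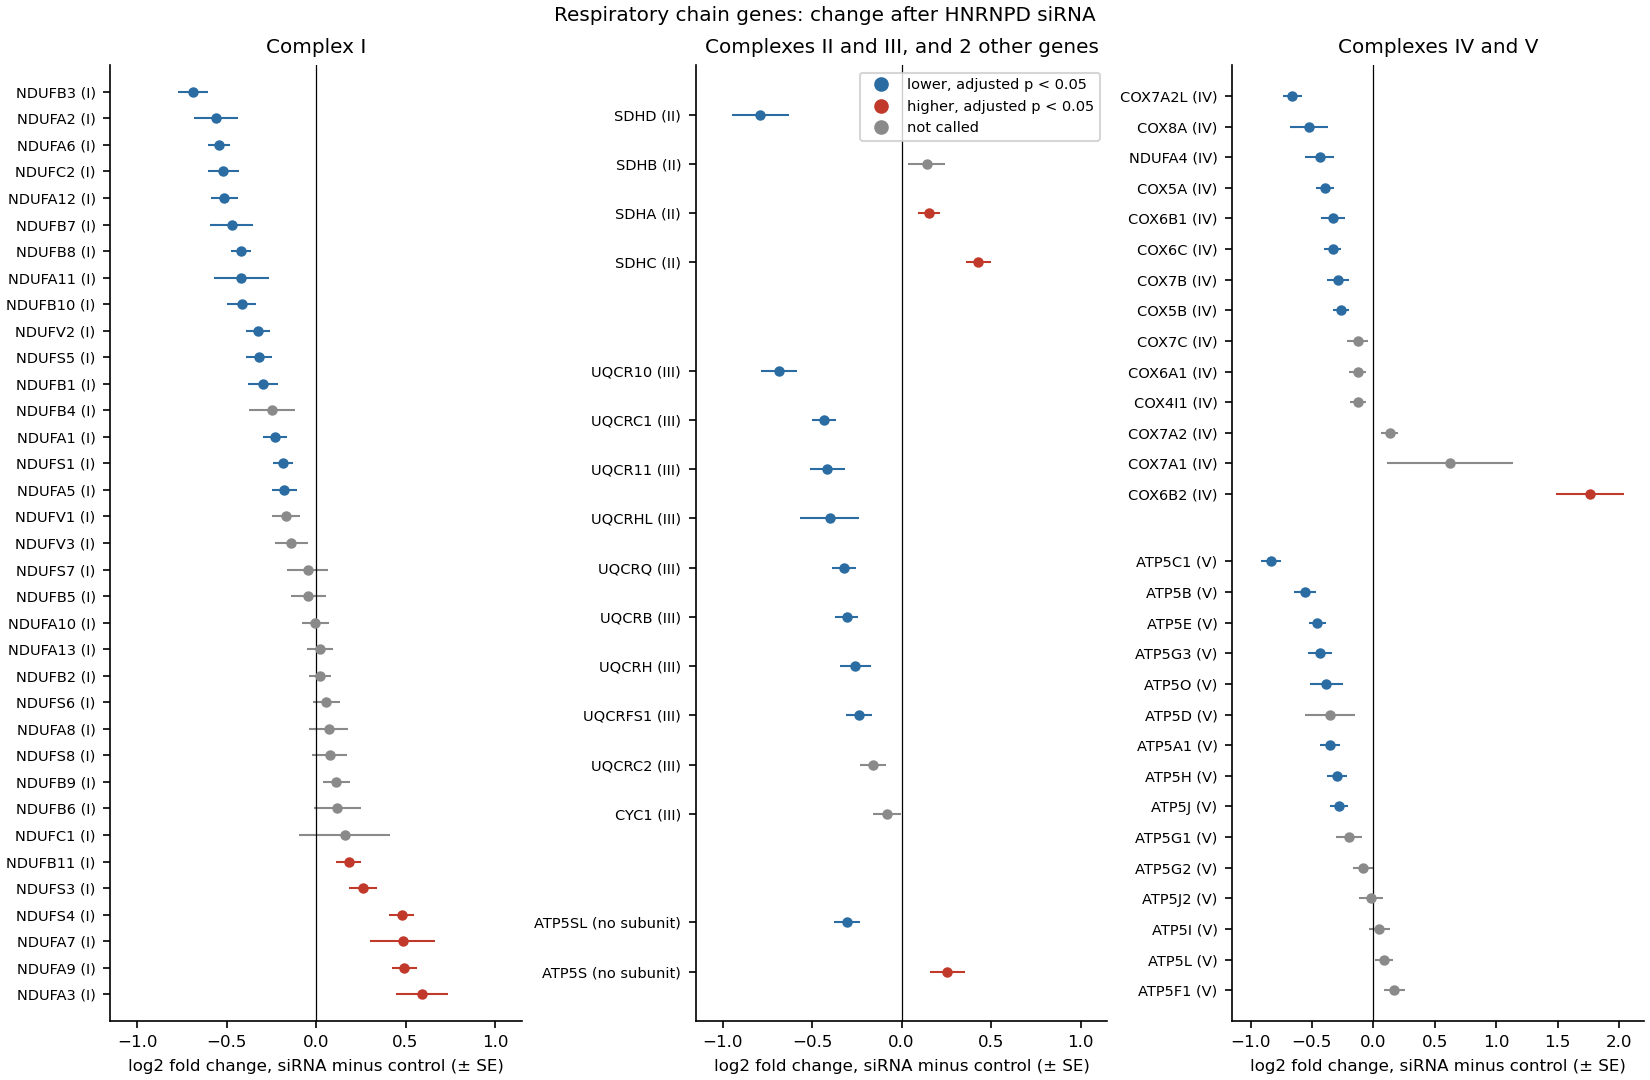
Change of 80 of the 81 tested genes. The x axis is the log2 fold change of HNRNPD siRNA minus control, points are edgeR estimates, bars are ± 1 SE, and colours give the call at an adjusted p under 0.05. All 10 genes of complex III lie left of 0, while complex I has points on both sides of it and complex IV reaches 1.76 with COX6B2.

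Complexes III, IV and V held falls almost alone, while complexes I and II held calls in both directions. Over all tested genes 27.8% were lower and 28.4% higher. In complex III 8 of 10 genes were lower and 0 higher, and in complex IV 8 of 14 tested were lower and 1 higher. In ATP synthase 8 of 15 tested were lower and 0 higher. The 0 counts hold for edgeR, DESeq2 and limma-voom, and no gene of either complex was higher at an unadjusted edgeR p under 0.05. Medians were -0.31 for complex III, -0.28 for complex IV and -0.29 for ATP synthase. In complex I 15 genes were lower (41.7%), 7 higher (19.4%) and 14 not called of 36. The share lower in complex I lies near the 39.5% of tested genes averaging 20 CPM or more, of which 31.5% were higher. The median of complex I, -0.09, moved to -0.15 without HNRNPD siRNA replicate 1 and to -0.03 without replicate 3. Without replicate 3, COX7A2 of complex IV and ATP5F1 of complex V were also called higher. In complex II 1 gene was lower and 2 higher of 4, with a median of 0.15. No test of the difference between complexes was run, and members of a complex are not replicates.

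The summed CPM of the 86 genes was 4604, 4289 and 4402 in the controls and 4065, 3963 and 3567 after HNRNPD siRNA. The sums of complexes I, III, IV and V were also lower in each HNRNPD siRNA library than in each control, whereas the 4 complex II genes summed to 189, 182 and 185 CPM in controls and to 215, 221 and 198 CPM after HNRNPD siRNA. SDHA made up most of the complex II sum, with means of 135 CPM in controls and 150 CPM after siRNA. SDHD, which fell, added means of only 5.43 and 3.14 CPM. HNRNPD siRNA replicate 3 was the lowest of the 6 libraries for 50 of the 81 tested genes. Without it 38 members were lower and 12 higher, and the median was -0.18.

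**Figure D2:**
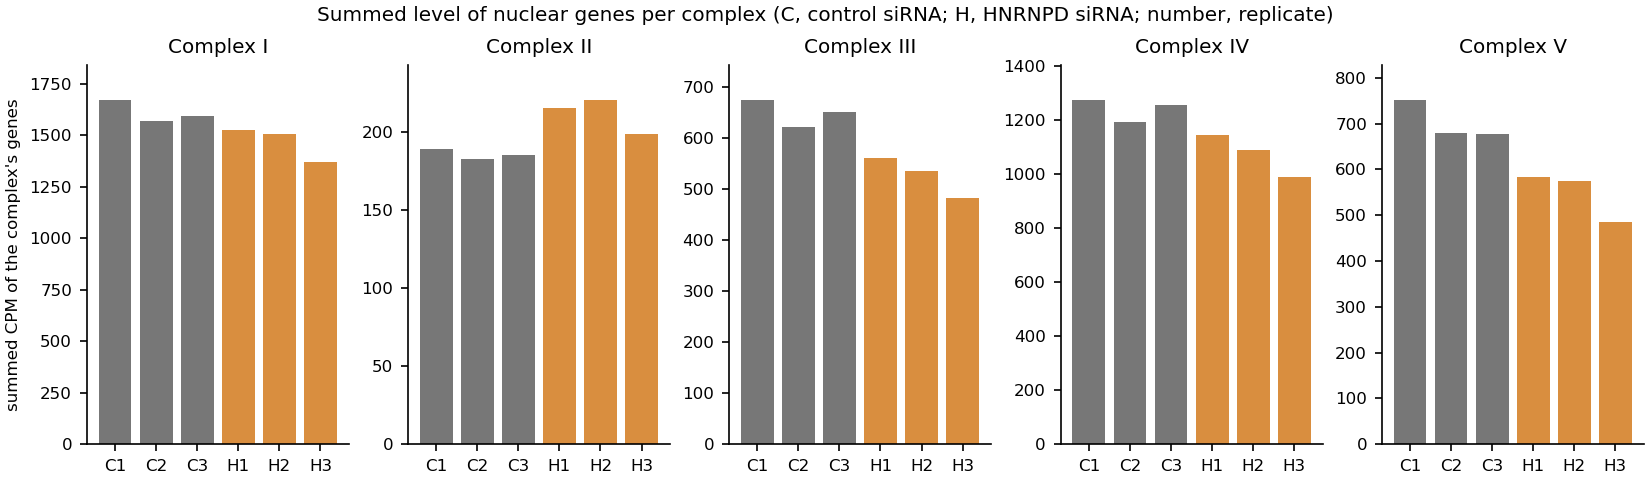
Summed level of the nuclear genes of each complex in each library. The y axis is summed CPM, bars start at 0, grey bars (C1 to C3) are control and orange bars (H1 to H3) HNRNPD siRNA replicates. Only the complex II sum is higher in all 3 HNRNPD siRNA libraries, at 198 to 221 CPM against 182 to 189 CPM in controls. Most of that sum is SDHA, with means of 150 CPM after siRNA and 135 CPM in controls.

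Complex I has 7 nuclear core subunits, which carry the flavin, the iron-sulfur clusters and the quinone site. NDUFS3, of the quinone module, was at 17.2, 17.2 and 18.5 CPM in controls and 21.2, 21.9 and 20.3 CPM after siRNA, a rise by a factor of 1.2. The rise of NDUFS3 left no overlap (log2 fold change 0.26, SE 0.08, edgeR adjusted p = 0.0069), and exons of other genes, mostly PTPMT1, cover a fraction of 0.224 of NDUFS3. In contrast, the iron-sulfur subunits NDUFS1 and NDUFV2 of the NADH module fell. NDUFV2 was at 42.8, 42.1 and 39.3 CPM in controls and at 32.7, 34.3 and 32.3 CPM after siRNA (log2 fold change -0.32, SE 0.07, edgeR adjusted p = 0.00041). NDUFS1 was at 103, 103 and 101 CPM in controls and 92.2, 88.5 and 89.1 CPM after siRNA (log2 fold change -0.19, SE 0.06, edgeR adjusted p = 0.00852).

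NDUFV1, NDUFS7 and NDUFS8, also of the core, did not pass the test. NDUFV1, which holds the flavin that takes electrons from NADH, was at 49.98, 47.5 and 43.0 CPM in controls and 43.5, 44.8 and 37.0 CPM after siRNA, and these ranges overlapped. It was called lower in 4 of 15 alternative settings (adjusted p from 0.0328), among them without control replicate 3 or HNRNPD siRNA replicate 2. NDUFS7 was at 8.69, 8.66 and 7.10 CPM against 8.11, 8.26 and 7.32 CPM, and NDUFS8 at 9.51, 10.2 and 9.97 CPM against 11.5, 9.95 and 9.94 CPM. Both bind iron-sulfur clusters of the quinone module, and their log2 fold changes of -0.05 (SE 0.11) and 0.08 (SE 0.10) were within 1 SE of 0.

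Accessory subunits of complex I surround the core and are needed for its assembly and stability. Of 29 tested, 13 were lower (44.8%) and 5 higher (17.2%). Over all tested genes 27.8% were lower and 28.4% higher, and among those averaging 20 CPM or more 39.5% and 31.5%. NDUFB3, of the membrane arm, had the largest fall of complex I, from 26.2, 26.8 and 24.6 CPM to 17.7, 14.9 and 15.5 CPM (log2 fold change -0.69, SE 0.08, edgeR adjusted p = 9.84e-07). NDUFA6, an LYR-motif protein and by length the second most abundant member, went from 219, 223 and 205 CPM to 144, 159.7 and 141 CPM (log2 fold change -0.54, SE 0.06, edgeR adjusted p = 7.41e-07). NDUFB8, a membrane-arm subunit widely used as a marker of assembled complex I, went from 109, 102 and 107 CPM to 78.8, 79.4 and 79.9 CPM (log2 fold change -0.42, SE 0.06, edgeR adjusted p = 5.4e-06). None of these 3 genes had overlapping groups. NDUFB8 and NDUFB3 share fractions of 0.485 and 0.198 of their exonic bases with other genes, so part of their counts may belong to neighbours.

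Other accessory genes called lower were NDUFA2, NDUFC2 and NDUFA12, with log2 fold changes of -0.56, -0.52 and -0.51, then NDUFB7 (-0.47), NDUFB10 and NDUFA11 (both -0.42), NDUFS5 (-0.32), NDUFB1 (-0.30), NDUFA1 (-0.23) and NDUFA5 (-0.18). The calls of NDUFA11 and NDUFA5 were lost without control replicate 1 or 2, among other settings, with adjusted p up to 0.104 and 0.173. NDUFA2 and NDUFA12 belong to the matrix arm, and the NDUFB proteins, NDUFC2, NDUFA1 and NDUFS5 to the membrane arm. Falls were therefore found in both arms.

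Among accessory genes, NDUFS4 rose from 57.3, 51.6 and 52.8 CPM to 81.5, 73.3 and 70.5 CPM (log2 fold change 0.48, SE 0.07, edgeR adjusted p = 8.97e-06). NDUFS4 is a late-assembling subunit next to the NADH site whose mutation causes Leigh syndrome. NDUFA9, at the junction of the matrix and membrane arms, rose from 27.5, 24.5 and 26.3 CPM to 37.0, 35.7 and 37.5 CPM (log2 fold change 0.49, SE 0.07, edgeR adjusted p = 7.5e-06). Groups did not overlap for either gene. NDUFA3 rose from a mean of 3.63 to 5.47 CPM (log2 fold change 0.59), NDUFA7 from 2.004 to 2.81 CPM (0.48) and NDUFB11 from 31.8 to 36.1 CPM (0.18). NDUFA7 and NDUFB11 share fractions of 0.335 and 0.449 of their exonic bases with other genes. Their calls were lost in 6 and 7 of 15 alternative settings, DESeq2 and the removal of single libraries among them, with adjusted p up to 0.132 and 0.203.

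**Figure D3:**
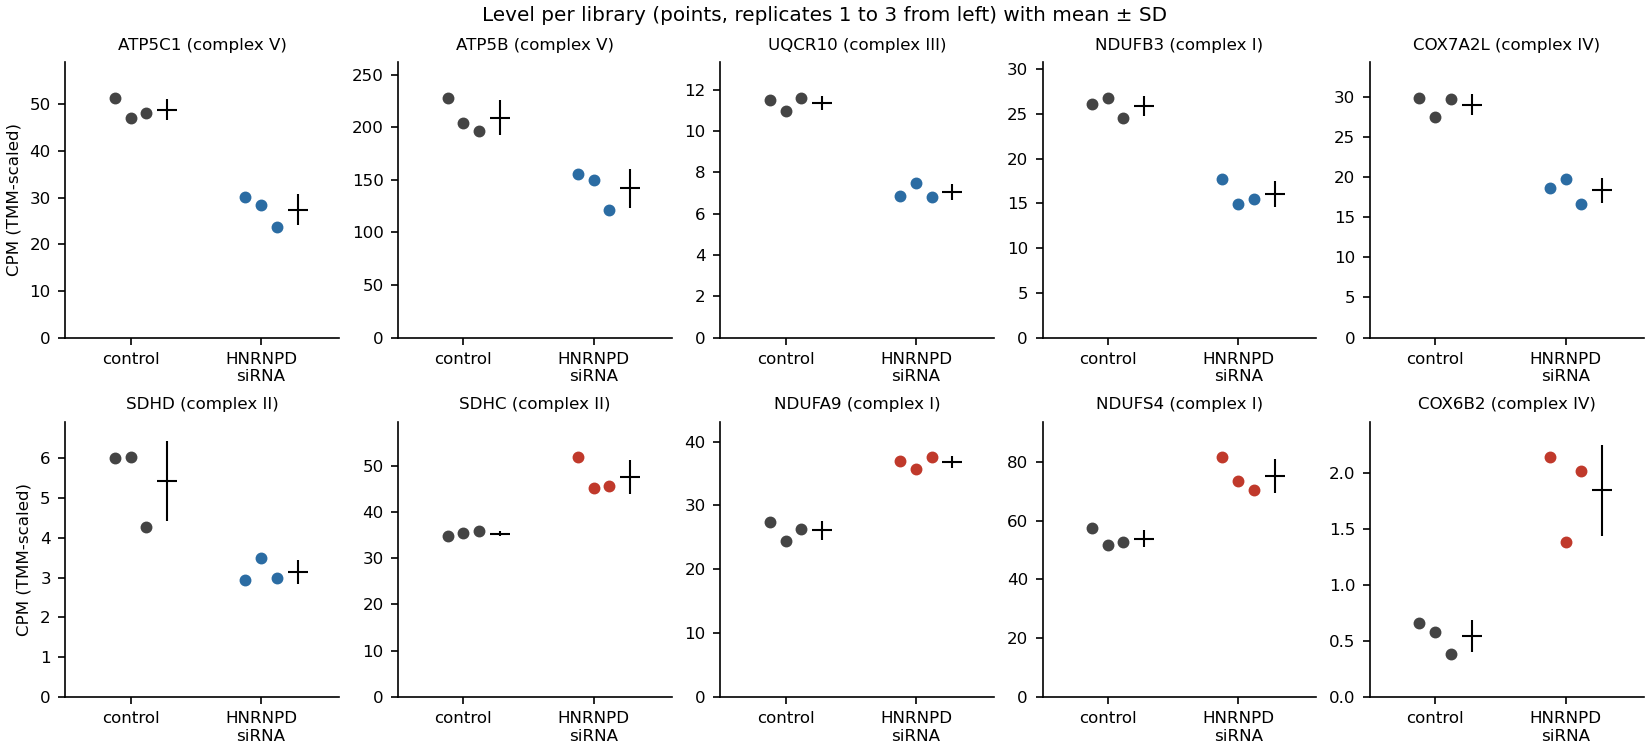
Level of 10 genes in each library. The y axis is CPM from 0, points are libraries with replicates 1 to 3 from the left, and the cross beside them is the mean with ± 1 SD (n = 3). Control and HNRNPD siRNA points do not overlap in any panel, and ATP5C1 goes from 48.8 ± 2.23 to 27.4 ± 3.34 CPM while NDUFA9 goes from 26.1 ± 1.49 to 36.8 ± 0.943 CPM.

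Complex II is the only complex made wholly from nuclear genes, and its membrane anchors moved in opposite directions. SDHC, the large anchor subunit, was at 34.8, 35.4 and 35.9 CPM in controls and rose to 51.9, 45.3 and 45.7 CPM (log2 fold change 0.43, SE 0.07, edgeR adjusted p = 3.22e-05). SDHD, the small anchor that pairs with it to bind heme and quinone, was at 6.01, 6.02 and 4.27 CPM in controls and fell to 2.94, 3.48 and 2.997 CPM (log2 fold change -0.79, SE 0.16, edgeR adjusted p = 0.000327). Neither gene had overlapping groups, and control replicate 3 was the lowest control for SDHD. Without that library SDHD had its largest fold change of the alternatives, at -0.95. SDHA, the flavoprotein that oxidises succinate, was at 137, 132 and 136 CPM in controls and 149.5, 161 and 139.7 CPM after siRNA. Its rise of 11.2% was called (log2 fold change 0.15, SE 0.06, edgeR adjusted p = 0.0424), but the call was lost in 8 of 15 alternative settings, with adjusted p up to 0.222. SDHB, the iron-sulfur subunit, was at 10.7, 9.43 and 8.87 CPM against 11.1, 10.8 and 10.04 CPM, with overlapping groups and no call.

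In complex III all 10 fold changes were below 0. UQCR10, a small subunit near cytochrome c1, fell from 11.5, 10.97 and 11.6 CPM to 6.84, 7.49 and 6.82 CPM (log2 fold change -0.68, SE 0.10, edgeR adjusted p = 1.08e-05). UQCRC1, which forms the large matrix-facing part with UQCRC2, fell from 80.7, 73.5 and 80.9 CPM to 58.4, 61.8 and 53.6 CPM (log2 fold change -0.44, SE 0.07, edgeR adjusted p = 2.22e-05). UQCRB, a ubiquinone-site subunit, fell from 319, 286 and 298 CPM to 258, 247 and 225 CPM (log2 fold change -0.31, SE 0.06, edgeR adjusted p = 0.000529). These 3 genes had no overlap between groups. The Rieske iron-sulfur protein UQCRFS1, which takes the first electron from ubiquinol, was at 37.1, 35.2 and 34.6 CPM and fell to 32.6, 30.7 and 27.4 CPM (log2 fold change -0.24, SE 0.07, edgeR adjusted p = 0.0105).

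CYC1, which is cytochrome c1 and receives that electron, was at 33.2, 30.2 and 31.6 CPM against 29.9, 33.1 and 26.9 CPM, so its groups overlapped and it was not called. UQCRC2, at -0.16 (SE 0.07), was not called either. Smaller accessory subunits UQCR11 (-0.41), UQCRQ (-0.32) and UQCRH (-0.26) were lower. UQCRHL, an intronless copy of UQCRH, was called at -0.40, but near-identical copies can share reads, and UQCRHL lost its call in 6 of 15 settings (adjusted p up to 0.163). UQCRH lost it without control replicate 1 or HNRNPD siRNA replicate 2 (adjusted p up to 0.0919).

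Complex IV is assembled around the subunits of mitochondrial DNA, and its nuclear subunits include several with tissue-specific isoforms. COX7A2L, a relative of subunit 7A that joins complexes III and IV in supercomplexes, fell from 29.8, 27.5 and 29.7 CPM to 18.7, 19.7 and 16.7 CPM (log2 fold change -0.66, SE 0.08, edgeR adjusted p = 1.1e-06). COX5A fell from 29.3, 28.03 and 30.7 CPM to 23.5, 21.95 and 21.3 CPM (log2 fold change -0.40, SE 0.07, edgeR adjusted p = 0.000141). COX6C, with the highest CPM in controls, fell from 404, 362 and 405 CPM to 342, 285 and 305 CPM (log2 fold change -0.33, SE 0.07, edgeR adjusted p = 0.000586). In all 3 genes the treated libraries lay below the controls. COX8A (-0.53), NDUFA4 (-0.44), COX6B1 (-0.33), COX7B (-0.29) and COX5B (-0.26) were also lower. Without control replicate 3, COX8A and COX7B had adjusted p of 0.0528 and 0.0584 and were no longer called.

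COX4I1, COX6A1 and COX7C, which are among the abundant subunits, had log2 fold changes of -0.12, -0.13 and -0.13 and were not called, and COX7A2 was at 0.13. COX6B2, the testis isoform of subunit 6B, was the only complex IV gene called higher. Its level was low, at 0.657, 0.584 and 0.381 CPM in controls and 2.14, 1.38 and 2.02 CPM after siRNA, with no overlap (log2 fold change 1.76, SE 0.28, edgeR adjusted p = 2.75e-05). A fraction of 0.309 of the exonic bases of COX6B2 also belongs to a gene on the same strand, so some of these counts may not be its own. Per kilobase of gene length, COX6B2 made up 1.02%, 0.963% and 0.601% of subunit 6B transcripts in controls and 3.77%, 2.58% and 4.62% after siRNA. These shares did not overlap, and the 2-sided exact permutation p of 0.1 is the smallest that 3 against 3 libraries allow, before any adjustment for the 7 isoform sets examined. Without division by length the mean share of COX6B2 was 3.41% in controls and 13.3% after siRNA.

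The other sets of complex IV isoforms had one dominant gene each. COX4I1, COX6A1 and COX7B made up at least 99.9% of their sets in each library, as COX4I2, the lung isoform induced by hypoxia, had 1 count in all, and COX6A2 (heart and muscle) and COX7B2 (testis) had 0. COX7A1, the heart and muscle isoform, was at 0.117, 0.210 and 0.286 CPM in controls and 0.495, 0.215 and 0.250 CPM after siRNA, with overlap. Its widespread partner COX7A2 was at 41.6, 41.9 and 42.6 CPM and at 47.99, 48.6 and 41.5 CPM, also with overlap. COX8C had 2 counts, all in HNRNPD siRNA replicate 3. COX8A, at 5.92, 4.71 and 6.63 CPM in controls and 4.67, 4.03 and 3.30 CPM after siRNA, was thus nearly the whole of subunit 8.

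ATP synthase consists of a catalytic F1 head, a peripheral stalk and a membrane part, Fo, and the falls lay mostly in the first 2 of these. All 5 F1 genes had fold changes below 0, with a median of -0.46, and 4 were called lower, beside 27.8% of all tested genes. ATP5C1, the gamma subunit that forms the rotating shaft, had the largest fall of all 81 tested genes, from 51.3, 47.1 and 48.04 CPM to 30.2, 28.4 and 23.7 CPM (log2 fold change -0.83, SE 0.08, edgeR adjusted p = 9.51e-08). ATP5B, the catalytic beta subunit, fell from 228, 204 and 196 CPM to 155, 149.9 and 121 CPM (log2 fold change -0.56, SE 0.09, edgeR adjusted p = 0.000111). ATP5A1, the alpha subunit that alternates with beta in the head, fell from 71.8, 64.2 and 65.9 CPM to 58.8, 54.0 and 45.4 CPM (log2 fold change -0.35, SE 0.08, edgeR adjusted p = 0.00159). Each of the 3 showed separate groups, with HNRNPD siRNA replicate 3 the lowest library. The epsilon subunit ATP5E fell from 56.8, 55.2 and 56.4 CPM to 43.8, 41.8 and 36.9 CPM (log2 fold change -0.46, SE 0.07, edgeR adjusted p = 1.66e-05). ATP5D, the delta subunit, was not called, at -0.36 (SE 0.20).

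In the peripheral stalk, which holds the head still, ATP5O (-0.38), ATP5H (-0.29) and ATP5J (-0.28) were lower and ATP5F1 (0.17, SE 0.08) was not called. ATP5O lost its call without control replicate 1 or HNRNPD siRNA replicate 3 (adjusted p up to 0.0912). Over all tested genes 27.8% were lower, the parts of ATP synthase hold few genes, and differences between the parts were not tested. Of 6 Fo genes tested 1 was lower, and their median was -0.05. That gene was ATP5G3, 1 of 3 genes that encode the same mature subunit c of the rotor ring, with 17.9, 17.5 and 15.3 CPM in controls and 14.1, 12.4 and 11.2 CPM after siRNA (log2 fold change -0.43, SE 0.10, edgeR adjusted p = 0.000991). ATP5G1 was at 11.3, 10.7 and 12.3 CPM against 10.6, 10.6 and 8.64 CPM, and ATP5G2 at 15.1, 15.1 and 14.8 CPM against 14.3, 14.6 and 13.4 CPM. Neither was called. Per kilobase, ATP5G1 held 41.1% ± 2.64 of subunit c transcripts in controls and 41.3% ± 1.39 after siRNA, ATP5G2 35.4% ± 0.728 and 38.6% ± 1.74, and ATP5G3 23.5% ± 2.02 and 20.1% ± 1.12 (SD, n = 3). The share of ATP5G2 did not overlap between groups (2-sided exact permutation p = 0.1, the smallest possible), and that of ATP5G3 did (p = 0.2). Without division by length ATP5G3 held the largest share in controls, 39.0% against 34.2% after siRNA, and its groups then did not overlap (exact permutation p = 0.1). ATP5I, ATP5J2 and ATP5L, which help ATP synthase dimers bend the membrane, were not called, with log2 fold changes of 0.05 (SE 0.09), -0.02 (SE 0.10) and 0.09 (SE 0.08).

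The genes matched by name that encode no subunit also split. ATP5SL, now known as DMAC2 and involved in complex I assembly, was lower (log2 fold change -0.31, SE 0.07, edgeR adjusted p = 0.00167). ATP5S, now DMAC2L, was called higher (log2 fold change 0.26, SE 0.10, edgeR adjusted p = 0.0298), but not in 4 of the 15 settings, each of which left out 1 library (adjusted p up to 0.185). The untested genes were COX4I2, COX6A2, COX7B2, COX8C and ATP5L2, with 0 to 4 counts each over all libraries.

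Levels can be compared between genes only per length, and on that scale members ranged widely in controls. NDUFS5, an accessory subunit of complex I, had 499.8 CPM per kilobase, NDUFA6 152, COX7C 130.3, COX6C 127 and ATP5B 90.1. After HNRNPD siRNA these levels were 401, 105, 119, 101 and 61.2 CPM per kilobase in the same order. The 41 genes called lower had a median control level of 15.3 CPM per kilobase, against 2.51 for the 11 called higher and 7.45 for the 29 not called. Without division by length these medians were 41.2, 26.1 and 25.2 CPM, and the genes called higher had a median length of 3670 bases against 2322 for those called lower. This is a description, since deposited gene lengths cover all annotated exons and not the transcripts used in these cells.

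**Figure D4:**
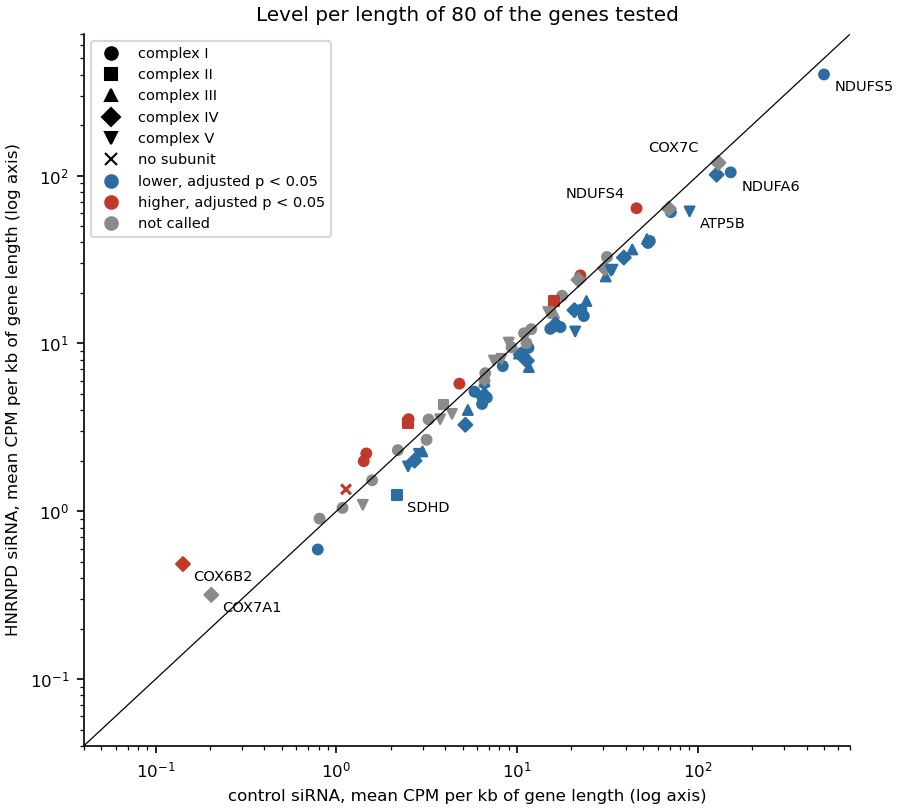
Level per length of 80 of the 81 tested genes in both groups. Both axes are log scales of mean CPM per kilobase of gene length (n = 3 libraries), shapes give the complex and colours the edgeR call, and the diagonal marks equal levels. ATP5B lies below the diagonal at 90.1 against 61.2, NDUFS4 lies above it at 45.8 against 63.9, and COX6B2 is lowest in controls at 0.142.

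Exons of other genes overlap 42 of the 86 members, and counts in such bases cannot be assigned with certainty here. The 40 tested members with no shared exonic base counted 21 lower (52.5%) and 3 higher (7.5%), with a median of -0.26. The 52 with a shared fraction under 0.1 counted 25 lower (48.1%) and 6 higher (11.5%), with a median of -0.22. Among all tested members 50.6% were lower and 13.6% higher, and over all tested genes 27.8% and 28.4%. Genes called above with a larger shared fraction, and not yet named for it, were NDUFA1 (0.445), COX8A (0.345), NDUFV2 (0.284), ATP5O (0.254), ATP5E (0.232), ATP5J (0.231), UQCRQ (0.208), ATP5S (0.201), ATP5H (0.191) and NDUFC2 (0.181). The fraction was 0.109 to 0.138 for SDHD, NDUFA2, NDUFA11, NDUFS1 and UQCR11. Pseudogene copies held few counts, as 23 of 24 genes with named pseudogenes had pseudogene counts under 1% of their own, and ATP5G1 had 6.66%.

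Promoter sequences show what many of these genes have in common before any change is measured. RefSeq promoters (GRCh38.p14, 250 bases before to 50 after the start) were matched by gene identifier for 68 of the 86 genes and searched on both strands. The ETS core CCGGAAG was found in 27.9% of them, against 10.7% of all 27305 promoters of the same length. The NRF1 core GCATGCGC was found in 19.1% against 3.27%, the full NRF1 palindrome, which holds this core, in 5.88% against 1.36%, and the YY1 core AAGATGGC in 16.2% against 3.03%. These are matches of letters, not measured binding.

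By call, the ETS core was present in 12 of 34 lower, 1 of 8 higher and 6 of 23 uncalled genes with a promoter entry, and the NRF1 core in 5, 0 and 8. The YY1 core was present in 4 of 34 lower, 4 of 8 higher and 3 of 23 uncalled genes. No test was run on these counts, and 8 genes are few. The sites below are a selection that places the shared elements in genes called lower and in genes called higher. Among these genes NDUFA7 lost its call in some settings, as given above. NDUFA6, UQCRC1, ATP5J and ATP5O, which were lower with the YY1 core, are not shown for that core. NDUFS3, which was higher with the ETS core, is not shown either. Other lower genes left out include ATP5J and COX5B for the NRF1 core and COX8A for the ETS core. Uncalled genes are not shown for any core, among them the 8 with the NRF1 core (34.8% of uncalled genes, against 14.7% of lower genes). Each site has 30 bases on the gene's strand, with the match in capitals. A match on the opposite strand reads as its reverse complement, GCGCATGC for the NRF1 core and CTTCCGG for the ETS core. In ATP5C1 and SDHD the marked NRF1 core is part of the full palindrome, so the core is present on both strands there.
In genes that fell, NRF1 core:
ATP5C1, chr10:7788144-7788173, plus strand: ggggagcttcgGCGCATGCgcgctgaggcc
SDHD, chr11:112086752-112086781, plus strand: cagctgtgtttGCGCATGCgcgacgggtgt
NDUFA6, chr22:42090920-42090949, minus strand: tctgtagatgaGCATGCGCagcacccaccg
In genes that fell, ETS core:
SDHD, chr11:112086785-112086814, plus strand: ccgcctctcgaCTTCCGGttcacccagcat
NDUFB7, chr19:14572072-14572101, minus strand: gcctaaatgacCCGGAAGctgtgtctgact
UQCR11, chr19:1605561-1605590, minus strand: tccaaccctcgCCGGAAGttactgtaagtg
In genes that rose, YY1 core:
NDUFA3, chr19:54102865-54102894, plus strand: ccgcggagacaAAGATGGCtgcgagtaagt
NDUFA9, chr12:4649113-4649142, plus strand: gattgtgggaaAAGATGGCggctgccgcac
NDUFA7, chr19:8321343-8321372, minus strand: atcgcggacggAAGATGGCgtccgccaccc
NDUFS4, chr5:53560649-53560678, plus strand: ttgcctgcagcAAGATGGCggcggtgtcaa
In each of the 4 YY1 matches, which begin 11 to 22 bases after the start, the ATG within the match is the annotated start codon, so the same letters are read both as a promoter motif and as the beginning of the protein. SDHD carries an NRF1 core 110 bases and an ETS match 77 bases before its start, and the NRF1 match of ATP5C1 begins 22 bases before its start.

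Genes that work with the subunits are given by list. Assembly factors build the complexes without staying in them, and 18 of 53 were lower and 14 higher (median -0.06). These shares of 34.0% and 26.4% lie near the 27.8% and 28.4% of all tested genes. All 4 factors of ATP synthase were called. TMEM70, which helps assemble the rotor ring, fell from 29.1, 24.0 and 23.9 CPM to 15.2, 13.1 and 15.5 CPM (log2 fold change -0.82, SE 0.09), and the F1 chaperones ATPAF1 and ATPAF2 had log2 fold changes of -0.53 and -0.48. C7orf55, now FMC1, was higher (1.71, SE 0.19) at a low level of 1.22 CPM in controls and 4.003 CPM after siRNA. In the set for complex I, NDUFAF8 (row C17orf89) and NDUFAF4 were lower (-0.48 and -0.55) and NDUFAF6 and NDUFAF5 higher (0.71 and 0.40). In that for complex IV, the copper chaperone COX11 and the COX2 chaperone COX20 fell (-0.46 and -0.41), while PET117 and CMC1 rose (0.80 and 0.59). Of those for complexes II and III, SDHAF2, which helps attach the flavin to SDHA, was lower (-0.68), UQCC2 and TTC19 were lower (-0.21 and -0.16), and UQCC1 and UQCC3 were higher (0.39 and 0.44).

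Of 8 respiratory chain genes that the name rule leaves out, 3 were lower (37.5%) and 4 higher (50%), beside 27.8% and 28.4% of all tested genes. The ATP synthase membrane proteins USMG5 and C14orf2 moved apart (0.63 and -0.37), as did NDUFA4L2, a relative of NDUFA4 (0.57), and HIGD1A, a small complex IV partner (-0.39). Cytochrome c, CYCS, was chosen for its role after its values were seen. It carries electrons from complex III to IV and rose from 312, 282 and 274 CPM to 347, 361 and 319.7 CPM (log2 fold change 0.24, SE 0.07, edgeR adjusted p = 0.0037). Among 13 regulators of these genes, the coactivator PPARGC1A rose from 10.2, 9.94 and 9.58 CPM to 22.3, 18.6 and 17.0 CPM (log2 fold change 0.96, SE 0.10, edgeR adjusted p = 1.72e-07), and GABPB1 rose (0.44). TFAM, which packages and transcribes mitochondrial DNA, fell from 75.3, 67.5 and 69.0 CPM to 50.4, 44.8 and 45.2 CPM (log2 fold change -0.60, SE 0.07, edgeR adjusted p = 5.58e-07), and GABPA fell as well (-0.25). NRF1 and YY1 themselves had log2 fold changes of -0.02 (SE 0.10) and 0.04 (SE 0.07). Of the 13 regulators 4 were lower (30.8%) and 2 higher (15.4%), and the share lower is near the 27.8% of all tested genes. Without control replicate 1 or 2 the regulators called lower were 2 in place of 4.

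Of 13 enzymes of the tricarboxylic acid cycle, which feeds complexes I and II, 8 were called lower and 2 higher (median -0.21). These shares of 61.5% and 15.4% stand beside 27.8% and 28.4% of all tested genes. Among tested genes averaging 20 CPM or more, 39.5% were lower and 31.5% higher. Malate dehydrogenase MDH2 and SUCLA2 fell (-0.54 and -0.46). IDH3B, a subunit of isocitrate dehydrogenase, was called higher (0.17, edgeR adjusted p = 0.0459). Only 1 enzyme was called higher under DESeq2 and limma-voom and when control replicate 2 or 3, or either of HNRNPD siRNA replicates 1 and 2, was left out.

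Of all tested genes 56.1% were called, against 2 of the 13 subunits encoded by mitochondrial DNA. Their median log2 fold change was 0.07, with 2 called higher, MT-CO2 (0.42, SE 0.12) and MT-ND3 (0.35, SE 0.11), and 0 called lower by edgeR, DESeq2 or limma-voom, with 0 also at an unadjusted edgeR p under 0.05. SEs ran from 0.07 (MT-CO1) to 0.32 (MT-ND6), so the few calls do not show that levels stayed equal. MT-ND4, for example, was not called at 0.42 (SE 0.15, edgeR adjusted p = 0.0567). MT-CO2 was at 3518, 4142 and 4099 CPM in controls and 6235, 4512 and 4971 CPM after siRNA. HNRNPD siRNA replicate 1 was the highest library for 11 of the 13. The count called higher was 0 without HNRNPD siRNA replicate 3, 5 without replicate 2 and 1 without control replicate 1, and without HNRNPD siRNA replicate 1 there were 2 called lower. The share of all counts from the mitochondrial chromosome ran from 15.7% to 18.5% in controls and from 15.1% to 18.1% after siRNA. The difference between nuclear and mitochondrial subunits was not tested.

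**Figure D5:**
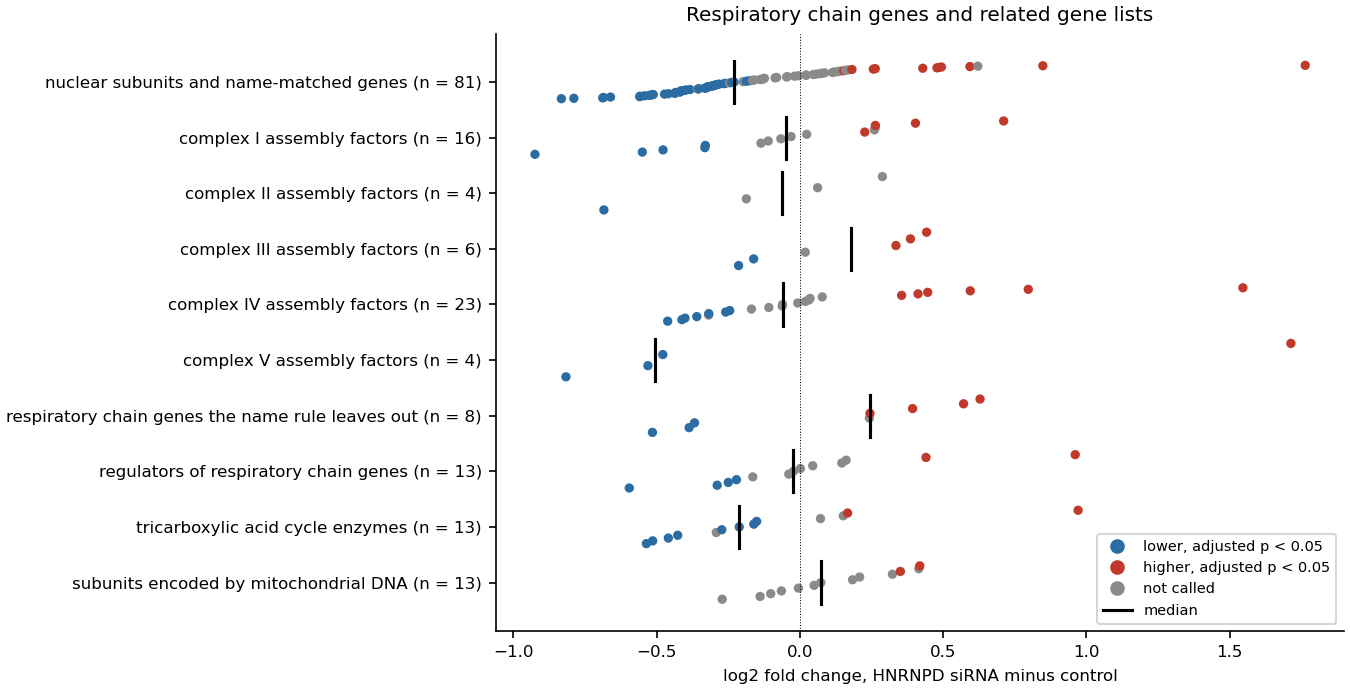
Fold changes of the nuclear respiratory chain genes beside related lists. The x axis is the log2 fold change of HNRNPD siRNA minus control, each point is a tested gene coloured by its edgeR call, and black bars are medians. The median is -0.23 for the 81 nuclear genes, -0.21 for the tricarboxylic acid cycle, -0.06 over all 53 assembly factors and 0.07 for the subunits of mitochondrial DNA.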

How the data were processed

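RNA was taken from A549 cells with 3 control and 3 HNRNPD siRNA libraries. The values are whole-number read counts per gene, deposited by the authors in 1 table with gene coordinates and lengths. The submitters' processing notes list Bowtie 0.12.2 and, without a role, the builds GRCh38 and mm8. The counting tool, annotation and strand setting were not given in the sources used here. Between 66.2% and 69.5% of counts of 1 to 20 were even, so both mates of a pair may have been counted and limits cover counting error only. Replicates were distinct libraries (chi-square per degree of freedom 6.13 to 24.7).

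Groups were compared with edgeR 4.0.16 (quasi-likelihood, robust, TMM, filterByExpr, group only) in R 4.3.3. P-values were adjusted by Benjamini-Hochberg over the 20465 genes tested, with calls at 0.05. SEs are the log2 fold change over the square root of F. DESeq2 1.42.0 and limma-voom 3.58.1, other scalings and filters, halved counts, a table without mitochondrial genes, a replicate block and the omission of each library were alternatives. Roles and gene lists were assigned by hand, and shared exonic bases were computed from the exon coordinates deposited with the counts. GENCODE 29 was used for the annotated start codons. Values per library are given for HNRNPD, for up to 3 called members per complex and direction with the smallest p, for the catalytic core, complex II and isoform sets, and in each related list 2 genes per direction are named by smallest p. The members and lists were chosen with earlier results of these data known. The values of 1 member and 1 related gene are not reported here, although counts and medians include them.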

Additional observations from a re-analysis of the deposited data

How the results depend on the processing

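Under 15 alternatives 41 of the 52 called members, 34 lower and 7 higher, were called each time. Of the other 11, 6 lost their call only when a library was left out, 8 members not called became called in some setting, and 0 called members changed direction. Leaving out each library in turn gave 36 to 43 members lower and 7 to 12 higher (7 without HNRNPD siRNA replicate 2), and medians of -0.26 to -0.18 for all members and -0.154 to -0.0289 for complex I. It gave 1 to 2 higher in complexes II and IV and 0 to 1 higher in complex V. It also gave 0 to 5 higher and 0 to 2 lower among mitochondrial subunits, 2 to 4 lower regulators and 1 to 2 higher cycle enzymes. In complex II, 1 gene was higher with DESeq2 size factors, with no filter on low counts and in DESeq2, since SDHA was lost. With those settings and limma-voom 1 cycle enzyme was higher. With library totals only or limma-voom 4 mitochondrial subunits were higher. Without division by length the difference in share was 9.92 percentage points for COX6B2 and -9.92 for COX6B1. The causes were not tested, apart from the tests' own construction. With the replicate number as a block, 42 members were lower and 11 higher, and the median was -0.23. The block changed 1 member's call, NDUFV1, and deviations of same-numbered libraries correlated at 0.026, 0.022 and 0.014, too weakly to take the numbers as pairs. Depth limits COX6B2, COX7A1 and the 5 untested genes most.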

Other observations

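Many respiratory chain genes start close to a gene on the opposite strand. Within 1000 bases, 29 members had such a protein-coding neighbour, and both genes were tested in 27 pairs. Both fell in 6 pairs, both rose in 4, they moved in opposite directions in 2, and in 15 at least 1 was not called. Over all 20465 genes tested, 27.8% were lower and 28.4% higher, and among the tested members 50.6% and 13.6%. Whether neighbours move together more often than other genes was not tested. UQCR10 fell with ZMAT5 (log2 fold changes -0.68 and -0.60) and ATP5A1 with HAUS1 (-0.35 and -0.68), and NDUFA9 rose with AKAP3 (0.49 and 1.44). The starts of ATP5A1 and HAUS1 overlap, as do those of NDUFA1, NDUFA2, NDUFB11, NDUFS1, NDUFS3 and UQCRQ with neighbours that moved the same way. Among pairs that moved together, only UQCR10 and ZMAT5, NDUFA9 and AKAP3, and NDUFA3 and OSCAR start apart. NDUFB1 and UQCRH fell (-0.30 and -0.26) while their neighbours CPSF2 and LRRC41 rose (0.34 and 0.41). The starts of these 2 pairs lie apart. Counts near shared starts may be divided between the partners where strand was not used.

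Genes called higher had a longer median deposited length, 3670 bases against 2322 for those called lower and 2615 for those not called. Lengths overlapped widely, from 1176 bases (NDUFS4) to 14160 (SDHC) for genes called higher. They ran from 507 (COX8A) to 12268 (NDUFS1) for genes called lower. The part of length in the calls was not tested.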
